A study of Mus musculus with 11 samples.

Results

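The 8 genes described here are Srebf2, Insig1, Hmgcs1, Idi1, Fdps, Fdft1, Sqle and Tmem97, which encode a regulator, a sensor, 5 enzymes and a membrane protein of the cholesterol pathway. They were chosen by name from the 19170 genes with values in the table that the authors deposited, and all 8 had values in every mouse. The gingival epithelium came from langerin-DTR mice, in which the receptor for diphtheria toxin (DT) is under the control of langerin, the lectin that marks Langerhans cells (LCs). All mice of both groups carried this transgene, and male mice are named in the methods of the study. DT was given to 6 mice and PBS to 5 mice at the ages of 17, 24 and 31 days, so that LCs were ablated around weaning, and the epithelium was collected when the mice were 8 weeks old. Any cell that expresses langerin is a target of DT in this model, and the LCs can return between the last injection and the collection. By flow cytometry in the paper, LCs had gradually come back and were at normal frequencies at the age of 8 weeks.

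Cells keep their cholesterol level steady through SREBP2, the transcription factor encoded by Srebf2. SREBP2 waits in the endoplasmic reticulum in a complex with SCAP, and when sterols are plentiful the INSIG proteins hold the complex there. When sterols run low the complex travels to the Golgi, SREBP2 is cut free, and it switches on the enzymes of cholesterol synthesis and the genes of cholesterol uptake. Keratinocytes are known for a high rate of sterol synthesis, and the outer layers of cornified epithelium hold cholesterol between their cells. Tmem97 encodes the sigma-2 receptor, a small membrane protein that binds NPC1, the lysosomal cholesterol exporter, and it is itself known as a target of SREBP2.

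The promoters of a sterol-responsive enzyme, of the regulator itself and of Tmem97 are shown. Tmem97 was picked because it differed from the other genes in its direction between the groups, although none of them passed the adjusted threshold. A link between the letters of a promoter and the direction of its gene was not tested. The 250 bases before the start site were taken from RefSeq on GRCm38.p6 and are printed on the strand of the gene, 5′ to 3′. They lie at chr13:119690101-119690350 on the + strand for Hmgcs1, at chr15:82147019-82147268 on the + strand for Srebf2 and at chr11:78550736-78550985 on the - strand for Tmem97. Capitals mark matches, on either strand, to the core of the sterol regulatory element (TCACNCCA), the CCAAT box that NF-Y binds, the GC box that Sp1 binds (GGGCGG) and the E box (CACGTG).
Hmgcs1: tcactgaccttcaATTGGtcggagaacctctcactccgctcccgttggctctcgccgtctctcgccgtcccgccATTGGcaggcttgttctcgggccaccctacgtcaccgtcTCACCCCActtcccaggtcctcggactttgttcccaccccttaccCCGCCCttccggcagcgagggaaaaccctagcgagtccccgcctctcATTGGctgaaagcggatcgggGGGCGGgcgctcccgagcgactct
Srebf2: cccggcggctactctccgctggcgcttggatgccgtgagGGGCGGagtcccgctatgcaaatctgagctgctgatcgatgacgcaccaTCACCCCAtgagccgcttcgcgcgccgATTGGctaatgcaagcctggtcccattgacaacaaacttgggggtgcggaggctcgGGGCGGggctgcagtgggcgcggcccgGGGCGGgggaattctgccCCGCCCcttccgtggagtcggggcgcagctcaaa
Tmem97: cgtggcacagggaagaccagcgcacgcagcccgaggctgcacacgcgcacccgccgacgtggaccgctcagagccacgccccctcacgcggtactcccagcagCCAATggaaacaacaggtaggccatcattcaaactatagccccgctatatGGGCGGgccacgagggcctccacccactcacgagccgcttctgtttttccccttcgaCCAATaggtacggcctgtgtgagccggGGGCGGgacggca

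In Hmgcs1 the match to the sterol regulatory element begins 137 bases before the start site, and in Srebf2 it begins 162 bases before it, with the letters TCACCCCA in both. No match to these letters lies in the windows of Tmem97, Insig1 and Idi1, which says nothing on binding elsewhere. The log2 fold change between DT and PBS was above 0 for Tmem97 (0.18) and below 0 for Insig1 (-0.11) and Idi1 (-0.09). Over the 300 bases searched, from 250 before to 50 after the start, Tmem97 held 2 CCAAT boxes and 2 GC boxes, Hmgcs1 held 4 and 3, and Srebf2 held 1 and 5. Insig1 held 1 CCAAT box, 3 GC boxes and 1 E box, and Idi1 held 2 CCAAT boxes and 1 GC box. Among all 32851 promoters of the table, the sterol regulatory element core was found in 4.36%, the CCAAT box in 37.4%, the GC box in 35.7% and the E box in 7.15%. No matches to different motifs overlapped in these 5 promoters. Of 60 genes of the pathway lists in the promoter table, which have 79 promoters, the sterol regulatory element core was present in 5, namely Apoe, Gpam, Hmgcs1, Msmo1 and Srebf2. These matches are a description of letters and not of binding.

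The libraries held between 17509328 and 24325510 reads per mouse, recovered from the deposited values. Krt13, a keratin of the suprabasal layers, was the highest of the markers of cell types, and all 9 suprabasal and 7 basal markers had values, as in the epithelium that the labels name. Of the markers of sebocytes 3 of 6 were listed without a value (Mc5r, Awat1 and Mogat1), and of those of adipocytes 5 of 6, with Adipoq, Plin1 and Lep among them. The other sebocyte markers summed to 752 to 910 normalized counts after PBS and 721 to 965 after DT, with Far2 the highest (mean 621). The adipocyte marker Fabp4 had a mean of 70.8. All fibroblast markers and some neutrophil markers had values, with Dcn (mean 1220) and S100a9 (mean 1048) the highest of their lists. The summed level of the 7 LC markers was between 2365 and 4967 normalized counts after PBS and between 1831 and 3142 after DT, and 0 of them passed the test. Cd207, which encodes langerin, had 10.0 to 43.0 normalized counts after PBS and 15.8 to 21.6 after DT. The part of LC markers in the results below was not tested, and in bulk epithelium fewer cells of a type cannot be told apart from less RNA per cell. PBS 3 and PBS 5 stood apart from the other mice on the first principal component, which held 36.0% of the variance of the 500 most variable genes (scores of 17.2 and 20.9, against -13.0 to -11.9 for the other PBS mice and -9.09 to 10.5 after DT). They were also the mice with the most Cd207 (32.2 and 43.0, against at most 21.6 in the other 9 mice) and the most Cd74, another LC marker (2251 and 1674, against at most 1169). A fit without both thus leaves out the PBS mice highest in these LC markers. This was not particular to LCs. Of the macrophage markers, Csf1r (146 and 130, against at most 115), Adgre1, C1qa and Cd68 were also highest in both mice, while C1qb and Mrc1 were not. The LC marker Cd1d1 was lowest in PBS 3 (30.2). The summed level of 12 immediate early genes, which respond fast to handling and stress, did not overlap between the groups, with 26255 to 67220 normalized counts after PBS and 71071 to 113140 after DT, and their part was not tested either.

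To ask whether the cholesterol pathway of the adult epithelium differs after early-life ablation of LCs, normalized counts were compared between DT and PBS by limma on the log2(normalized count + 1) scale. Tmem97 was higher in all 6 DT mice than in any PBS mouse, with means of 2172 and 1916 normalized counts. Sqle was lower in all 6 DT mice than in any PBS mouse, with means of 2899 and 3232, and the other 6 genes had DT means below their PBS means with overlapping groups. None of the 8 genes passed the adjusted threshold of 0.1 in limma, where 107 of all 19170 genes (0.558%) passed, 0.313% with DT higher and 0.245% with DT lower. At an unadjusted p under 0.05, 1 of 8 genes was higher (Tmem97) and 1 of 8 was lower (Sqle), beside 5.31% and 6.19% of all genes. The log2 fold change was below 0 for 7 of the 8 genes, as it was for 52.7% of all genes and for 43.6% of the genes that averaged 100 normalized counts or more. The median log2 fold change of the 8 genes was -0.11, beside -0.01 over all genes and 0.02 over the genes with that average. Beside these 2 genes without overlap, 1.65% of all genes had groups that did not overlap, 0.902% with DT higher and 0.751% with DT lower.

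**Figure D1:**
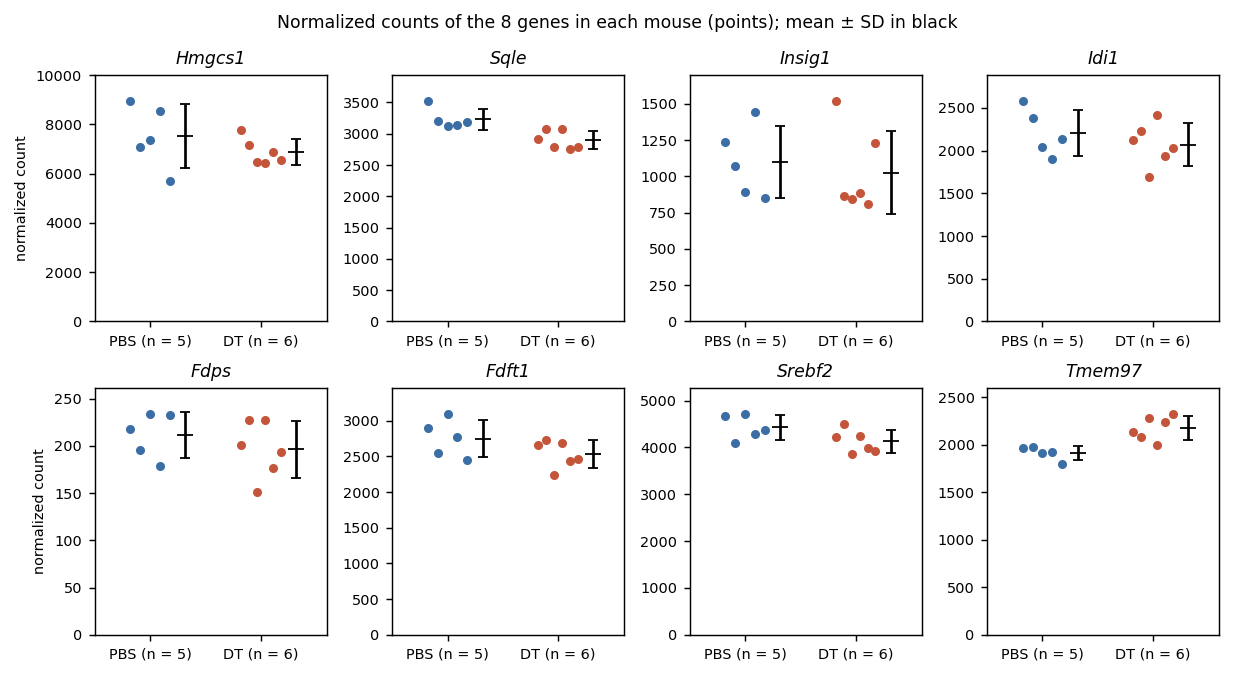
Normalized counts of the 8 genes (vertical axes, each from 0) in each mouse after PBS (blue, n = 5) and DT (red, n = 6), with mice of a group in the order of their numbers and the mean ± SD in black. The 6 red points of Tmem97 lie above all blue points and those of Sqle lie below them, while the groups overlap for the other 6 genes, and Insig1 shows 2 DT mice far above the other 4.

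Srebf2 (ENSMUSG00000022463, on chromosome 15) encodes SREBP2 and is itself switched on by it. The PBS mice had 4674, 4096, 4707, 4295 and 4363 normalized counts of Srebf2. After DT the lowest mouse had 3867, the median was 4107 and the highest mouse had 4508. The DT mice reached from below the lowest PBS mouse into the PBS range, and 5 of 6 lay below the PBS mean. With means of 4427 ± 260 (SD) after PBS and 4127 ± 240 (SD) after DT, Srebf2 had a log2 fold change of -0.10 ± 0.05 (SE), with a 95% confidence interval from -0.22 to 0.01 and a limma adjusted p of 0.491. The unadjusted limma p was 0.077 and the exact permutation p 0.078, and the groups overlapped.

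Insig1 (ENSMUSG00000045294, on chromosome 5) encodes the sterol-dependent anchor that keeps SCAP and SREBP2 in the endoplasmic reticulum, and its own gene is switched on by SREBP2. Insig1 had 1238, 1071, 891, 1444 and 848 normalized counts in the PBS mice. The DT mice ranged from 807 to 1519, with a median of 877. High values were found in both groups, in PBS 1, PBS 4, DT 1 and DT 6, and no gene of the 8 varied more within groups. The coefficient of variation of Insig1 was 22.6% after PBS and 27.9% after DT, against a counting error of 3.06% at its mean read number. With means of 1098 ± 248 (SD) after PBS and 1025 ± 286 (SD) after DT, Insig1 had a log2 fold change of -0.11 ± 0.16 (SE), with an interval from -0.46 to 0.24 and a limma adjusted p of 0.844, which is within the spread between mice. It lay between -0.23 (without DT 1) and -0.0072 (without PBS 4) when 1 mouse was left out.

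Hmgcs1 (ENSMUSG00000093930, on chromosome 13) encodes the cytosolic HMG-CoA synthase, which works early in the mevalonate pathway. After PBS, Hmgcs1 had 8954, 7099, 7354, 8533 and 5687 normalized counts. The DT mice ranged from 6422 to 7773, with a median of 6716. PBS 1 and PBS 4 were the highest of all 11 mice and PBS 5 was the lowest, so that the PBS mice spanned the whole DT range. Hmgcs1 had means of 7525 ± 1289 (SD) after PBS and 6880 ± 524 (SD) after DT, a log2 fold change of -0.11 ± 0.09 (SE), with an interval from -0.32 to 0.09 and a limma adjusted p of 0.688. Single mice moved this value, to -0.05 without PBS 1 (limma adjusted p 0.912), -0.06 without PBS 4 (0.859) and -0.21 without PBS 5 (0.210). When PBS 3 and PBS 5 were left out together the log2 fold change of Hmgcs1 was -0.25 ± 0.07 (SE) with a limma adjusted p of 0.065, in a fit in which 10.3% of all genes (1967) passed the threshold.

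The next enzymes of the chain are Idi1, Fdps and Fdft1. Idi1 (ENSMUSG00000058258, on chromosome 13) encodes the isomerase that readies isopentenyl diphosphate for chain building. In the PBS mice Idi1 was at 2580, 2378, 2046, 1897 and 2138 normalized counts. After DT the lowest mouse had 1690, the median was 2072 and the highest mouse had 2415. The groups of Idi1 overlapped over most of their range. Its means were 2208 ± 272 (SD) after PBS and 2068 ± 250 (SD) after DT, with a log2 fold change of -0.09 ± 0.09 (SE), an interval from -0.28 to 0.10 and a limma adjusted p of 0.738. It was -0.04 without PBS 1 or DT 3 and -0.15 without PBS 4.

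Fdps (ENSMUSG00000059743, on chromosome 3) encodes farnesyl diphosphate synthase, whose product also feeds protein prenylation, ubiquinone and dolichol. The PBS mice had 217, 195, 233, 178 and 233 normalized counts of Fdps. The DT mice ranged from 151 to 228, with a median of 197. Fdps had the fewest normalized counts of the 8 genes, and the groups overlapped. Near-identical transcripts exist for Fdps (5, none with a value), so that its true level is uncertain. It rested on 150 to 269 reads per mouse, so that counting alone gives an error of 6.99%, beside a coefficient of variation of 11.4% after PBS and 15.1% after DT. Fdps had means of 211 ± 24.1 (SD) and 196 ± 29.6 (SD), a log2 fold change of -0.11 ± 0.11 (SE), with an interval from -0.35 to 0.12 and a limma adjusted p of 0.747. It was -0.04 without DT 3, -0.17 without PBS 4 and -0.02 without PBS 3 and PBS 5 together.

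Fdft1 (ENSMUSG00000021273, on chromosome 14) encodes squalene synthase, the first enzyme that commits the chain to sterols. After PBS, Fdft1 had 2894, 2545, 3091, 2777 and 2446 normalized counts. The DT mice ranged from 2234 to 2727, with a median of 2563. All 6 DT mice lay below the PBS mean of Fdft1, yet PBS 2 and PBS 5 lay within the DT range. Fdft1 had means of 2751 ± 261 (SD) and 2536 ± 192 (SD), a log2 fold change of -0.12 ± 0.07 (SE), with an interval from -0.26 to 0.03, a limma adjusted p of 0.538 and an exact permutation p of 0.158. Without PBS 3 it was -0.07 and without PBS 5 -0.16.

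Sqle (ENSMUSG00000022351, on chromosome 15) encodes squalene epoxidase, a control point of the chain behind squalene. The PBS mice had 3524, 3196, 3116, 3140 and 3185 normalized counts of Sqle. After DT the lowest mouse had 2754, the median was 2851 and the highest mouse had 3079. The groups did not overlap, with all 6 DT mice below the lowest PBS mouse, although DT 2 and DT 4 came close to it. Sqle had means of 3232 ± 166 (SD) after PBS and 2899 ± 147 (SD) after DT, and its log2 fold change was -0.16 ± 0.05 (SE), with an interval from -0.26 to -0.05. The unadjusted limma p was 0.0063 and the exact permutation p was 0.0065, but over all genes the limma adjusted p was 0.237. Without PBS 3 and PBS 5 the log2 fold change was -0.18 ± 0.06 (SE) and the limma adjusted p was 0.067.

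Tmem97 (ENSMUSG00000037278, on chromosome 11) had a log2 fold change of the opposite sign. The PBS mice had 1969, 1975, 1916, 1926 and 1793 normalized counts of Tmem97. After DT the lowest mouse had 1995, the median was 2184 and the highest mouse had 2320. All 6 DT mice lay above the highest PBS mouse, with DT 4 the closest to it. The mean of Tmem97 was 1916 ± 73.2 (SD) after PBS and 2172 ± 126 (SD) after DT, which is 13.4% higher. Tmem97 had a log2 fold change of 0.18 ± 0.05 (SE), with an interval from 0.07 to 0.29. The unadjusted limma p was 0.0026 and the exact permutation p was 0.0043, but over all genes the limma adjusted p was 0.196. Without PBS 3 and PBS 5 the log2 fold change of Tmem97 was 0.15 ± 0.05 (SE) and the limma adjusted p was 0.120.

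Since Tmem97 and the rest of the 8 genes had log2 fold changes of opposite sign, Tmem97 was also set against some of them within each mouse, as a description with no test. Some synthesis enzymes outside the 8, such as Pmvk, had the sign of Tmem97. Each gene that Tmem97 was set against had a log2 fold change below 0, so that ratios higher on average after DT follow from this choice. The ratio of normalized counts of Tmem97 to Sqle was 0.559, 0.618, 0.615, 0.613 and 0.563 in the PBS mice. After DT it was 0.731, 0.675, 0.817, 0.648, 0.813 and 0.831. That the groups did not overlap here follows from the values of both genes, which each did not overlap. The ratio of Tmem97 to Srebf2 was 0.407 to 0.482 after PBS and 0.460 to 0.590 after DT, and that to Fdft1 was 0.620 to 0.776 after PBS and 0.742 to 1.02 after DT. The ratio to Hmgcs1 was 0.220 to 0.315 after PBS and 0.274 to 0.354 after DT. These last 3 ratios overlapped between the groups.

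**Figure D2:**
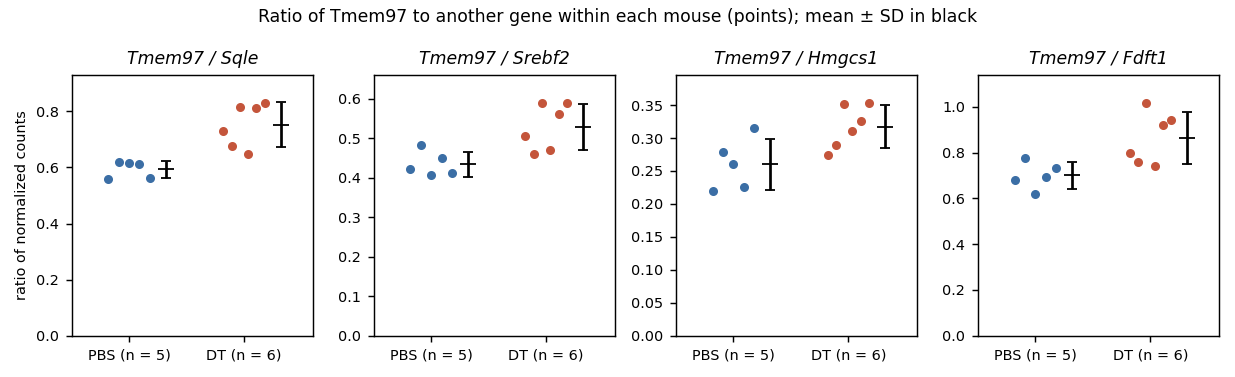
Ratio of the normalized counts of Tmem97 to those of Sqle, Srebf2, Hmgcs1 and Fdft1 (vertical axes, each from 0) within each mouse after PBS (blue, n = 5) and DT (red, n = 6), with the mean ± SD in black. The ratio to Sqle reaches 0.618 at most after PBS and is at least 0.648 after DT, as the values of both genes require, while the other 3 ratios overlap between the groups.

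The rest of the pathway was described from lists of genes by their role. Of the 14 other enzymes of cholesterol synthesis considered, 0 passed the limma adjusted threshold, and at an unadjusted p under 0.05, 3 were lower after DT and 0 were higher, beside 6.19% and 5.31% of all genes. The log2 fold change was below 0 for 10 of these 14 enzymes, beside 52.7% of all genes and 43.6% of those that averaged 100 normalized counts or more, with a median of -0.07 and a range from -0.29 to 0.12. Lss, lanosterol synthase, which closes the sterol rings after Sqle, had 1773, 1636, 1777, 1640 and 1571 normalized counts after PBS. The DT mice ranged from 1174 to 1614, with a median of 1433. Only DT 2 lay within the PBS range, and the log2 fold change of Lss was -0.26 ± 0.07 (SE) with a limma adjusted p of 0.196 and an exact permutation p of 0.011. Mvd, the decarboxylase that makes isopentenyl diphosphate, and Hsd17b7, a sterol ketoreductase, were singled out after their values were seen. Their log2 fold changes were -0.29 ± 0.10 and -0.20 ± 0.09 (SE), with limma adjusted p of 0.289 and 0.429. Cyp51, the lanosterol demethylase, and Dhcr7, which takes part in the last steps, had log2 fold changes of -0.10 ± 0.08 and 0.01 ± 0.06 (SE), with limma adjusted p of 0.707 and 0.963. Pmvk, a kinase of the mevalonate branch, had 3495 ± 269 (SD) normalized counts after PBS and 3818 ± 461 (SD) after DT, a log2 fold change of 0.12 ± 0.08 (SE) with a limma adjusted p of 0.603.

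Of the 9 genes of cholesterol uptake and lysosomal export considered, 0 passed the limma adjusted threshold, and at an unadjusted p under 0.05, 2 were lower after DT and 0 were higher, beside 6.19% and 5.31% of all genes. Their median log2 fold change was -0.09, and 8 of 9 were below 0, beside the same 52.7% and 43.6%. Lrp8, a lipoprotein receptor, had the smallest p of these 9 genes, and Stard4, which carries sterols between membranes, was singled out after its values were seen. In the PBS mice Lrp8 had 160, 141, 162, 110 and 154 normalized counts. The DT mice ranged from 96.7 to 131, with a median of 107. All 6 DT mice lay below the PBS mean of Lrp8, and PBS 4 lay within the DT range. With means of 145 ± 21.3 (SD) after PBS and 109 ± 13.7 (SD) after DT, Lrp8 had a log2 fold change of -0.40 ± 0.12 (SE) with a limma adjusted p of 0.215. Without PBS 4 it was -0.50 with a limma adjusted p of 0.073. Stard4 had 1363, 1017, 1065, 1024 and 825 normalized counts after PBS. After DT it ranged from 736 to 1048, with a median of 846. PBS 1 was the highest mouse, and all 6 DT mice lay below the PBS mean. With means of 1059 ± 194 (SD) and 868 ± 124 (SD), Stard4 had a log2 fold change of -0.28 ± 0.11 (SE) with a limma adjusted p of 0.350. Npc1, which TMEM97 binds, and its soluble partner Npc2 had log2 fold changes of -0.04 ± 0.07 and 0.07 ± 0.07 (SE), with limma adjusted p of 0.861 and 0.761.

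Of the 11 genes of the machinery that controls SREBP, 0 passed the limma adjusted threshold, and 1 was higher at an unadjusted p under 0.05, beside 5.31% of all genes. This was Erlin1, whose protein lies in the endoplasmic reticulum and binds cholesterol there. Erlin1 had 1311, 1291, 1333, 1255 and 1287 normalized counts after PBS, and after DT it had 1358 at the lowest, 1411 at the median and 1458 at the highest. The groups did not overlap, and the log2 fold change of Erlin1 was 0.12 ± 0.04 (SE), with a limma adjusted p of 0.272 and an exact permutation p of 0.00216, the smallest that 462 splits of the mice allow. Insig2, the paralog of Insig1, lay above its PBS mean in 6 of 6 DT mice, with 767 ± 61.6 (SD) after PBS and 836 ± 43.7 (SD) after DT, a log2 fold change of 0.13 ± 0.06 (SE) and a limma adjusted p of 0.438. Scap and Srebf1, which encodes SREBP1, had log2 fold changes of 0.01 ± 0.05 and -0.06 ± 0.05 (SE), with limma adjusted p of 0.953 and 0.694. The sign of Scap turned in 3 alternatives and that of Dhcr7 in 6, so no direction is given for either gene.

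Genes of efflux, esterification and the oxysterol receptor LXR act when cholesterol is plentiful. Of these 10 genes 0 passed the limma adjusted threshold, 2 were higher after DT at an unadjusted p under 0.05 and 0 were lower, beside 5.31% and 6.19% of all genes, with a median log2 fold change of 0.12. Mylip, a ubiquitin ligase known as a target of LXR, had 1143, 972, 1065, 1078 and 959 normalized counts after PBS. After DT it had 1074 at the lowest, 1184 at the median and 1304 at the highest. All 6 DT mice lay above the PBS mean of Mylip, and 4 of 6 lay above every PBS mouse, with a log2 fold change of 0.17 ± 0.06 (SE) and a limma adjusted p of 0.283. Abcg1, a cholesterol exporter singled out after its values were seen, had 711 ± 83.5 (SD) and 816 ± 55.7 (SD), a log2 fold change of 0.20 ± 0.08 (SE) with a limma adjusted p of 0.302. Abca1, the other main exporter, had 241 ± 35.9 (SD) and 262 ± 43.0 (SD), a log2 fold change of 0.11 ± 0.12 (SE) with a limma adjusted p of 0.770. Nr1h2, the gene of LXR beta, had a log2 fold change of -0.07 ± 0.05 (SE) with a limma adjusted p of 0.574.

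**Figure D3:**
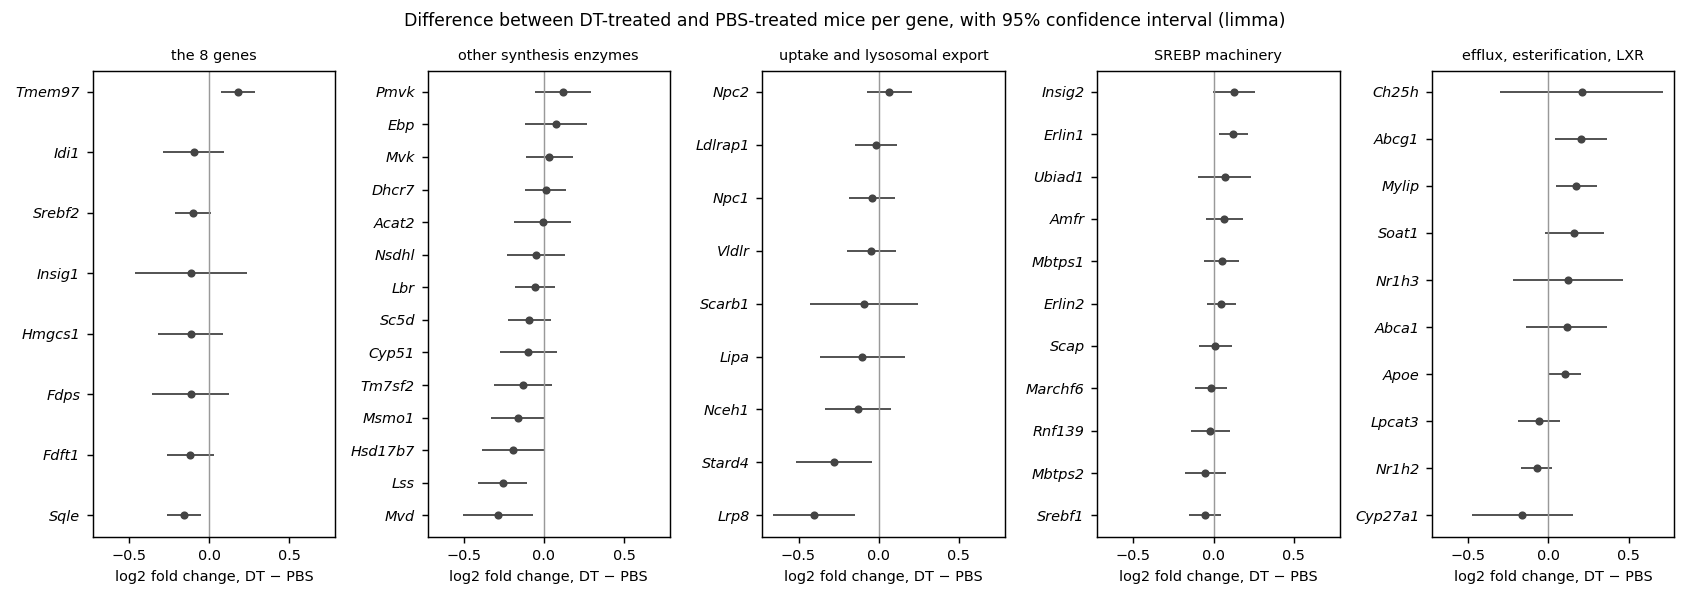
Log2 fold change between DT and PBS mice (horizontal axis, points) with its 95% confidence interval from limma (lines) for the 8 genes and for 4 lists of other cholesterol genes, ordered by value within each panel. Most synthesis and uptake genes lie left of 0, with Lrp8 at -0.40 farthest to the left, while Tmem97, Erlin1, Mylip and Abcg1 lie to the right with intervals above 0.

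**Figure D4:**
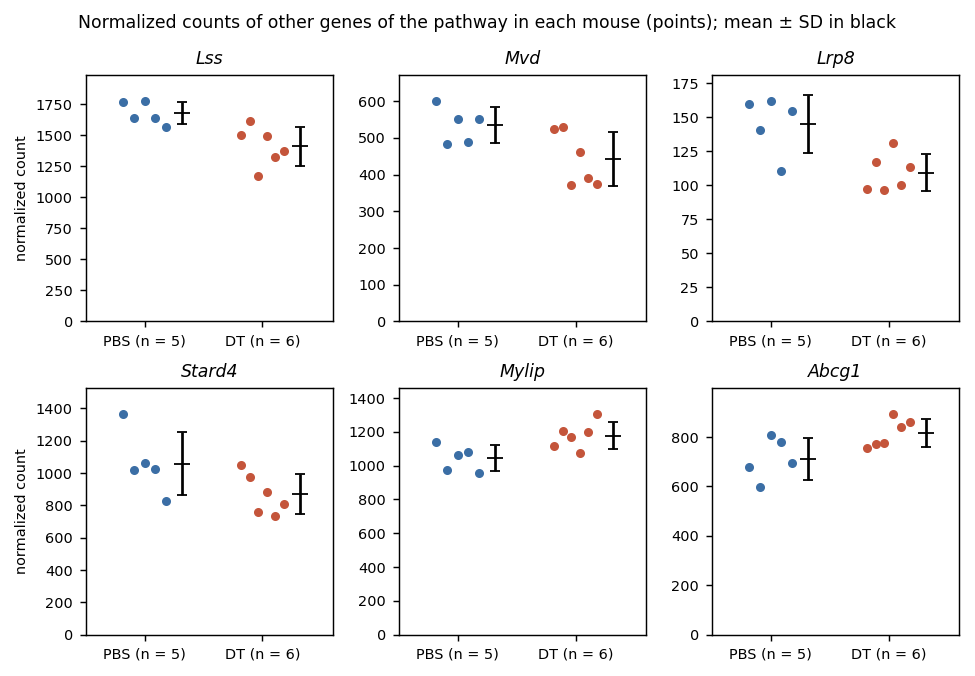
Normalized counts (vertical axes, each from 0) of Lss, Mvd, Lrp8, Stard4, Mylip and Abcg1 in each mouse after PBS (blue, n = 5) and DT (red, n = 6), with the mean ± SD in black. For the first 4 genes most red points lie below the PBS mean and for Mylip and Abcg1 above it, and in each of the 6 panels the groups overlap in at least 1 mouse.

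The other branches were described in the same way. Of 12 genes of fatty acid synthesis under SREBP1, 0 passed the limma adjusted threshold and 0 an unadjusted p under 0.05, with a median log2 fold change of -0.09. Scd2, a fatty acid desaturase, had the lowest p among those below 0 (log2 fold change -0.19 ± 0.09 (SE), limma adjusted p 0.438), and Me1, malic enzyme, among those above (0.07 ± 0.05 (SE), limma adjusted p 0.624). Of 11 genes of the isoprenoid branches that start from farnesyl diphosphate, 0 passed the limma adjusted threshold and 0 an unadjusted p under 0.05, with a median of 0.05. There Coq2, of ubiquinone synthesis, had a log2 fold change of 0.11 ± 0.05 (SE) and Pggt1b, a prenyltransferase subunit, one of -0.07 ± 0.07 (SE), with limma adjusted p of 0.454 and 0.729. In the small EXPERA family, named after a fold that TMEM97 shares with the sterol isomerase EBP, Tmem97 was the 1 gene of 5 with an unadjusted p under 0.05, and 0 passed the limma adjusted threshold. Ebp had a log2 fold change of 0.08 ± 0.09 (SE), its relative Ebpl one of 0.06 ± 0.14 (SE) and the weakly expressed Tm6sf1 one of -0.42 ± 0.23 (SE), with limma adjusted p of 0.800, 0.914 and 0.504. Over all 70 genes of these lists other than the 8, 3 were higher and 5 were lower at an unadjusted p under 0.05, beside 5.31% and 6.19% of all genes, with a median log2 fold change of -0.02.

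Calls in these lists also rested on PBS 3 and PBS 5. Without both mice, in the fit in which 10.3% of all genes passed, 9 pathway genes passed the limma adjusted threshold. Among the 4 lower ones, Stard4 had a log2 fold change of -0.38 (limma adjusted p 0.059), Pggt1b -0.19 (0.058), Scd2 -0.28 (0.070) and Lss -0.26 (0.071). Among the 5 higher ones, Ebp had 0.24 (0.057), Abcg1 0.26 (0.068) and Npc2 0.17 (0.079), beside Apoe and Fnta, which were picked out by this fit.

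The levels of the 8 genes were set side by side as normalized counts per kilobase of exon, as mean ± SD over all 11 mice. Hmgcs1 (1562 ± 208) and Tmem97 (1495 ± 122) were the highest, and Hmgcs1 was above Tmem97 in 6 of 11 mice, so that these neighbours did not differ beyond their spread. Fdft1 (623 ± 57.1), Idi1 (608 ± 73.3), Srebf2 (593 ± 39.5) and Sqle (550 ± 41.2) followed as a group whose neighbours overlapped, although Srebf2 was above Sqle in 10 of 11 mice. Insig1 (342 ± 83.7) and Fdps (48.3 ± 6.45) were lower, each below the gene before it in 11 of 11 mice. With the length of the longest coding transcript in place of all exons, Sqle moved to the third place (1106 per kilobase) and Fdps stayed last (147). By that length Hmgcs1 (2071 ± 276) stood farther above Tmem97 (1495 ± 122). The order in the middle of the list and the gap at its top thus depend on the length used. Division by length also assumes reads along the whole transcript. The methods of the study follow the guide of a kit that reads transcript ends (QuantSeq), while its reporting summary names a stranded mRNA kit. Which of them applies was not tested, so the order of these levels is uncertain. Reads from near-identical copies are a limit of these levels. Transcripts with at least 95% identity over 200 bases or more exist for Fdps (5), Idi1 (3), Fdft1 (2), Hmgcs1 (1) and Tmem97 (1). Of these copies only those of Hmgcs1 (an antisense gene with a mean of 5.69 normalized counts) and Ctsb, which shares bases with Fdft1, have values in the table. The levels of the 5 genes are uncertain also where the copies have no value. How many reads the copies cost or lent these genes was not tested.

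The spread of the 8 genes within groups was close to that of other genes. Their median coefficient of variation was 10.4% after PBS and 7.59% after DT, against 9.40% and 6.58% over the 10019 genes that averaged 100 normalized counts or more. Tmem97 was the steadiest of the 8 after PBS (3.82%), and Insig1 was the most variable in both groups.

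To ask whether the 8 genes vary together between mice of the same treatment, Pearson's r was computed over the 11 mice after the group mean was removed, for all 28 pairs, with exact permutation of the mice within groups. Of the 28 pairs 1 passed an adjusted p of 0.05, that of Sqle and Idi1, and 7 had an unadjusted p under 0.05. Sqle and Idi1 varied together with r = 0.84 (exact permutation p = 0.00072, adjusted 0.020) and Spearman's rho = 0.85 (exact permutation p = 0.00032, adjusted 0.0091), and r was 0.79 without PBS 1 and DT 5, the mice farthest from the median of Sqle. An r at least as high as 0.84 was found for 0.349% of the pairs of a member with another gene that averaged 10 normalized counts or more. No pair passed when PBS 1, PBS 3, DT 1, DT 2, DT 4 or DT 6 was left out, nor under TMM scaling, and 3 pairs passed without PBS 5. Fdft1 and Srebf2 had r = 0.84 (exact permutation p = 0.0048, adjusted 0.067) and rho = 0.86 (exact permutation p = 0.0024, adjusted 0.033), with r = 0.75 without PBS 3 and DT 3. Fdps and Srebf2 had r = 0.76 (exact permutation p = 0.012, adjusted 0.117), and rho = 0.78 (exact permutation p = 0.0098, adjusted 0.089), with r = 0.67 without PBS 3 and DT 3. Hmgcs1 and Insig1, which were both high in PBS 1, PBS 4 and DT 1, had r = 0.65 (exact permutation p = 0.022, adjusted 0.140) and rho = 0.54 (exact permutation p = 0.114, adjusted 0.285), with r = 0.65 without PBS 1 and PBS 5.

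An r of at least 0.6 was found for 6 of the 28 pairs (21.4%), beside 5.82% of the 107752 pairs of a member with any of 13469 other genes. These other genes averaged 10 normalized counts or more, and a share among genes of like level was not computed. Among the 21 pairs without Tmem97, 18 had a positive r and the median was 0.48. Some of these rested on few mice. Without PBS 1 and DT 3, r of Idi1 fell from 0.43 to -0.00026 with Fdft1 and from 0.48 to 0.13 with Srebf2. Without PBS 3 and DT 3, r of Fdps and Fdft1 fell from 0.59 to 0.22. The other pairs of Sqle, Idi1, Fdps, Fdft1 and Srebf2 kept an r of 0.42 to 0.79 without the mice farthest from the median. The 7 pairs with Tmem97 had a median of -0.40, and 5 of them were negative. The lowest was that with Fdps (r = -0.70, exact permutation p = 0.030, adjusted 0.140, and rho = -0.80, exact permutation p = 0.013, adjusted 0.089), with r = -0.72 without PBS 3 and DT 3. None of the negative pairs passed the adjusted threshold, so that an opposite course of Tmem97 within groups is a description of these 11 mice.

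**Figure D5:**
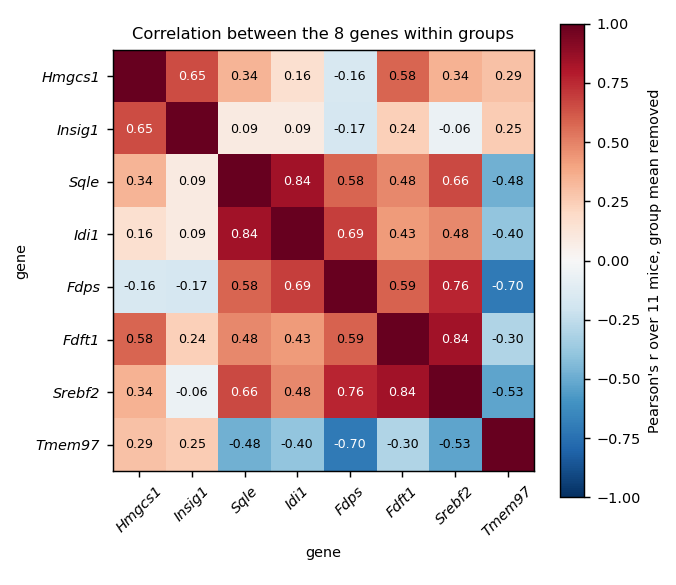
Pearson's r (colour and printed value) between each pair of the 8 genes over 11 mice, with the group mean removed. Pairs of Sqle, Idi1, Fdps, Fdft1 and Srebf2 lie between 0.43 and 0.84, the highest being Sqle with Idi1, and Tmem97 is below 0 with each of these 5 genes. Some of these values rest on few mice, as r of Idi1 with Fdft1 was -0.00026 without PBS 1 and DT 3.

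The genes most like Tmem97 over the 11 mice, with the group mean removed and among the 10011 others that averaged 100 normalized counts or more, were Mtmr12 (r = 0.93), Pmvk (0.91), Ythdf1 (0.90), Abi3bp (0.90) and Nr3c1 (0.90). Those most like the mean of the 8 genes were Stard4 (0.92), Sox6 (0.92), Pappa (0.92), Arhgap26 (0.92) and Epha4 (0.90). These lists hold the top of a ranking over 11 mice and carry no test.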

How the data were processed

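Gingival epithelium of 11 mice, 5 after PBS and 6 after DT, was profiled by RNA sequencing. Per the labels, the authors used cutadapt 2.10, TopHat2 2.1.1, HTSeq 2.01 and DESeq2 1.36.0 to trim, align and count the reads and to divide the counts by size factors. For cutadapt, HTSeq and DESeq2, other versions are named by the authors in the methods. The deposited values are therefore normalized counts per gene and mouse, and genes with a summed count under 10 were removed by the authors. GRCm39 is named in the labels and GRCm38 in the methods, so no gene coordinates are given. Chromosomes and lengths came from GENCODE mouse release 21 on GRCm38, in which 19117 of 19170 genes had a match. The table lists 36244 further genes without a value.

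Reads were recovered by dividing the values by the value of a single read in each mouse (98.97% to 99.99% of values whole within 0.1), and were used for depth and counting error only. DT was compared with PBS by limma 3.58.1 (R 4.3.3) on log2(normalized count + 1) with a trend of variance on level, over 19170 genes with all 11 mice and no covariate. Adjustment was by Benjamini-Hochberg and the threshold of 0.1 is that of the study. Single genes were also tested with two-sided exact permutation over 462 splits of the mice, and correlations over 86400 orders within groups with a threshold of 0.05 over 28 pairs. Group values are mean ± SD. The p-values of the comparison set the difference between the groups against the spread between these mice. Tests on counts with edgeR or DESeq2 were planned on recovered reads and not run, because the deposited values could not be taken as counts. The procedure was tested on simulated data.

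The 8 genes, the lists and the tests were chosen with earlier results of these data known. Named are the 8 genes, other genes of the pathway picked for their role, those with the smallest p of each list in each direction, and the 5 genes most like a pattern. Other pseudocounts, filters, scalings, array weights, replicate blocks and left-out mice were tried as alternatives. Some genes of the lists are not reported here and were left out of the counts over lists. Near-identical transcripts were found by BLAST. Of the 8 genes 5 had a promoter in the RefSeq table used, Sqle, Fdps and Fdft1 not being among them.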

Additional observations from a re-analysis of the deposited data

Results flagged for a closer look

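In 66 groups of mice of 1 treatment and 1 gene, taken over the named genes, 3 had a mouse that lay apart from the others by Dixon's criterion at the 95% level. Chance flags about 1 in 20 groups. Sqle in PBS 1 was 3524 normalized counts, above the other PBS mice with 3116 to 3196, and without this mouse the DT mice still lay below all PBS mice. Pmvk in PBS 5 was 3029 normalized counts, below the other PBS mice with 3556 to 3726. Npc1 in DT 1 was 1237 normalized counts, below the other DT mice with 1391 to 1468.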

How the results depend on the processing

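All 8 genes kept the sign of their log2 fold change under the 20 alternatives to the limma fit, and Tmem97 lay between 0.15 and 0.20 with limma adjusted p from 0.120 to 0.624. None of the 8 passed the threshold in 19 of these fits. The 20 alternatives are not separate checks of the sign. The filter on the mean cannot change a log2 fold change. The block by library number gave the log2 fold changes of the fit without DT 5, and the block by title those without DT 6. Leaving out PBS 3 and PBS 5 together gave 2 of the 8 genes (Hmgcs1 and Sqle), 9 pathway genes (Ebp, Npc2, Abcg1, Apoe and Fnta higher; Lss, Stard4, Scd2 and Pggt1b lower) and 1967 genes in all (922 higher and 1045 lower), the cause of which was not tested. Array weights gave 189 genes in all. Over the fits that left out 1 mouse, the number was 0 to 1 for pathway genes (Lrp8 without PBS 4) and 27 (without DT 5) to 259 (without PBS 5) for all genes, with a split of 60 higher and 47 lower in the fit of all mice, 19 and 8 without DT 5, and 155 and 104 without PBS 5.

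The mice share numbers across groups, in their titles and in their library names. Same-numbered mice correlated with r of -0.23 to 0.32 by title and -0.23 to 0.17 by library. By these numberings, 1 of 5 and 0 of 5 PBS mice correlated best with their own number. No pairing by number was seen, but so few pairs cannot settle whether the numbers pair the mice. With the replicate block by title 35 genes were called in all, and with the block by library number limma called 0, with 1404 at an unadjusted p under 0.05.

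For pairs of the 8 genes, Spearman's rho called 2, TMM scaling 0 and values not centred on the group mean 3. Leaving out 1 mouse called 0 to 3 pairs, with 0 without PBS 1, PBS 3, DT 1, DT 2, DT 4 or DT 6 and 3 without PBS 5. The sign turned for 4 named genes with log2 fold changes near 0. Dhcr7 was -0.0345 without PBS 3 and PBS 5, -0.0094 under quantile normalization, -0.0058 with the replicate block by title and -0.0278 to 0.0441 when 1 mouse was left out (below 0 without DT 3, DT 6 or PBS 5). Without 1 mouse Ebpl was -0.0663 to 0.1543 and Npc1 -0.0723 to 0.0062, both turning without PBS 4. Scap was -0.0041 under quantile normalization and -0.0109 to 0.0483 without 1 mouse, below 0 without PBS 1 or PBS 4. Of the other values of single genes, 641 kept their direction and side of the threshold, 10 came past it and 6 levels per kilobase moved with the transcript length. Tests by edgeR and DESeq2 were not run. At this number of mice, the 95% confidence intervals of 6 of the 8 genes include 0. Those of Sqle and Tmem97 do not, but the intervals are not adjusted over all genes. Their limma adjusted p were 0.237 and 0.196. Neither a difference nor its absence is therefore shown for any of the 8 genes.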
